A study of Mus musculus with 15 samples.

Results

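The TGF-beta and BMP signalling genes are 38 genes that encode secreted ligands, their receptors, the proteins that restrain them, the Smad transducers and the Id targets. They were taken from a table of 25292 mouse genes by a rule on symbols that used no measured value. The list itself was chosen with earlier results of these data known. By role the 38 genes comprise 10 ligands, 2 latent TGF-beta binding proteins, 9 receptors and co-receptors, 5 antagonists (the pseudoreceptor Bambi among them), 6 receptor-regulated or common Smads, 2 inhibitory Smads and 4 Id genes. All 38 passed the filter on low counts and were tested. Fst passed it only through the untreated explants described below.

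Ligands of the TGF-beta family bring together type I and type II receptor kinases, and the activated type I receptor phosphorylates receptor-regulated Smads, which enter the nucleus with Smad4. TGF-betas, activins and Gdf11 act mainly through Smad2 and Smad3, and BMPs act through Smad1, Smad5 and Smad9. In the embryonic pancreas, activin and Gdf11 signals bear on how endocrine progenitors form, follistatin from the mesenchyme binds activin, and BMP signals act between epithelium and mesenchyme.

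RNA was sequenced from 5 groups of C57/Bl6J embryonic pancreata, with 3 libraries in each group. Pancreata labelled wt or S1pr2 null were collected at 14.5 dpc. S1pr2 is a receptor for the lipid sphingosine-1-phosphate (S1p), and by the methods of the study the null allele carries a cassette inserted in the gene. The other groups were wt explants of the dorsal bud, dissected at 14.5 dpc and cultured at an air-liquid interface (ALI) for 2 days in serum-free medium. They received neither agent (control, given solvent where appropriate by the methods of the study), 15 μM of the S1pr2 antagonist JTE013 (JTE), or 15 μM JTE013 with 50 ng/ml connective tissue growth factor protein (JTE+CTGF). Each library was made from a pool of up to 3 organs or explants. Between 11402804 and 13828737 reads per library were assigned to genes. The library JTE 3 stood apart from the others of its group, since the chi-square of its counts, divided by the number of genes, was 17.2 against JTE 1 and 23.2 against JTE 2 but 3.01 between those. S1pr2 itself had more reads under the S1pr2 null label than under wt (1486, 1368 and 1609 against 858, 796 and 812). Counts per gene cannot show whether a transcript is disrupted, so these reads do not check the label.

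The starts of 4 members are shown because the results below turn on them. They encode the activin subunits Inhba and Inhbb, whose changes in culture and with JTE013 were the largest among the ligands, and the type II receptors Bmpr2 and Acvr2b, which were lower with CTGF. Each line holds the 250 bases before the RefSeq start of the gene (build GRCm38.p6), 5′ to 3′ on the strand of the gene.
Inhba, plus strand, chr13:16011601-16011850: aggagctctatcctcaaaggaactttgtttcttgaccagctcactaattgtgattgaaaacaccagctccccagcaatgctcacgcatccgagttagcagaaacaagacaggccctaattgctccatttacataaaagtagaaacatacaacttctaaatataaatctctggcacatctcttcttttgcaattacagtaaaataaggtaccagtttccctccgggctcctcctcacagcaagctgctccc
Inhbb, minus strand, chr1:119422249-119422498: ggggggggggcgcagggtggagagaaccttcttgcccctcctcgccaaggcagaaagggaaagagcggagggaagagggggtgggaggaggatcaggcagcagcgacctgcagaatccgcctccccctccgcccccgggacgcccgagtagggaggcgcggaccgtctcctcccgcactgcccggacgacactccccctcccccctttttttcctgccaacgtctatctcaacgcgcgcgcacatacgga
Bmpr2, plus strand, chr1:59764029-59764278: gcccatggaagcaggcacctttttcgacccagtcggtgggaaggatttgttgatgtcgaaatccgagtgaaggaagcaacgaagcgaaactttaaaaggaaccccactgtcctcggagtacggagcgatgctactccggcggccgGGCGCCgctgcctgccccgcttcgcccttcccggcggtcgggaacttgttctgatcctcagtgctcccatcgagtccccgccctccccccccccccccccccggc
Acvr2b, plus strand, chr9:119401928-119402177: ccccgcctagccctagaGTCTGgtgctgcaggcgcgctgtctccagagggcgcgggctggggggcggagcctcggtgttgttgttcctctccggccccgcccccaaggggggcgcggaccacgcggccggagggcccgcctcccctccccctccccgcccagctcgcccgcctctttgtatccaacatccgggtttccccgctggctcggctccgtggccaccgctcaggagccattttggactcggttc
Capitals mark matches to 2 short motifs known from Smad binding, CAGAC (read as GTCTG on the other strand) and GGCGCC, both searched on both strands. The Bmpr2 window held 1 GGCGCC, which starts 105 bases before the RefSeq start, and the Acvr2b window held 1 GTCTG, which starts 233 bases before it. Inhba and Inhbb held neither motif. CAGAC occurred in 42.2% and GGCGCC in 9.59% of 32851 promoter windows of the same length, so a match is a description of the letters only. The RefSeq start of Acvr2b lies upstream of the first exon in the count table.

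Among the members, 3 of the Id genes were the most abundant per length of exon in wt pancreata. On the RPKM scale (reads scaled to exon length and library size), Id2 stood at 72.3 ± 1.69 (SD, n = 3), Id1 at 59.1 ± 5.18 and Id3 at 44 ± 2.6. Bmp7 was the leading ligand at 38.4 ± 0.597 RPKM. The level of Smad5, 26.8 ± 1.24 RPKM, and that of the type I BMP receptor Bmpr1a, 24.7 ± 2.67, differed by less than their spread, as did those of Tgfbr1 (19.4 ± 2.08) and Tgfbr2 (18.8 ± 1.83). Ltbp2 at 0.163 ± 0.0308, Fst at 0.231 ± 0.0721 and Inhba at 0.348 ± 0.108 RPKM were the lowest, so their values rest on few reads.

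**Figure D1:**
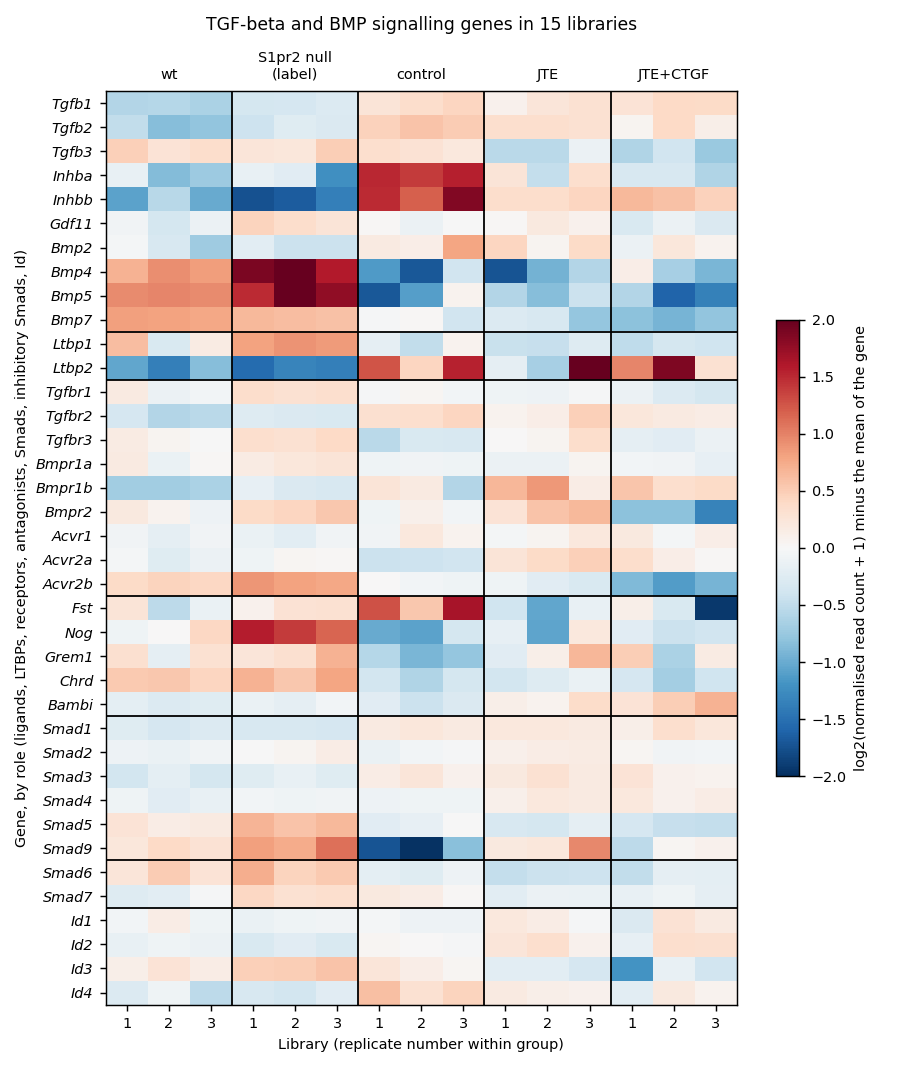
Each cell shows log2(normalised read count + 1) of 1 gene in 1 library minus the mean of that gene over the 15 libraries, with the colour scale ending at −2 and 2; black lines separate groups and roles. Bmp4, Bmp5 and Nog were highest in the libraries labelled S1pr2 null, and Inhba and Inhbb in the control explants.

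The first comparison asked how the members differ in pancreata labelled S1pr2 null. Of 38 members, 14 rose and 1 fell relative to wt (edgeR quasi-likelihood test, Benjamini-Hochberg adjusted p below 0.05), while 25.8% of all 16245 genes tested were called, 12.6% higher and 13.3% lower. Called members made up 39.5% of the list, and their direction was nearly one-sided. The median log2 fold change was 0.20 over the members and −0.012 over all genes. The groups did not overlap for 23 members (46.3% of all genes). Under the stricter criterion of the study (adjusted p of up to 0.1, fold under 0.6 or over 1.6, mean normalised reads over 100 in 1 of the groups, protein-coding), Bmp4 was the 1 member higher and 0 were lower. The criterion was applied here to edgeR values, whereas the study used DESeq2. Of all genes tested, coding or not, 3% met it, 1.39% higher and 1.62% lower. Without the library wt 3, 9 members were called higher. In whole-organ RNA, a change in the number of cells that express a gene and a change in RNA per cell cannot be told apart.

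**Figure D2:**
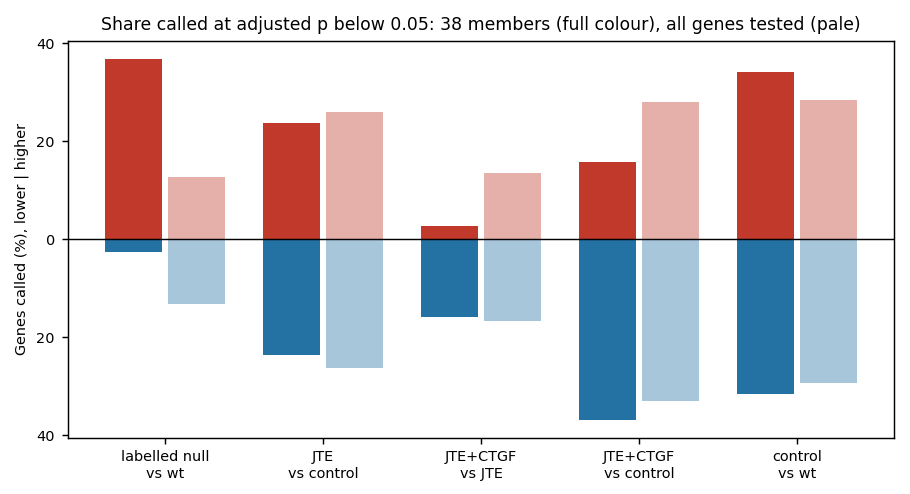
Percent of genes called higher (red, upwards) and lower (blue, downwards) at an edgeR adjusted p below 0.05 in each of 5 comparisons, for the 38 members (full colour) and all 16245 genes tested (pale). In the labelled S1pr2 null libraries the members reach 14 of 38 higher against 12.6% of all genes.

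Of the 4 BMP ligands Bmp4 and Bmp5 rose, as did the BMP antagonist Nog. Normalised read counts of Bmp4 were 78.3, 91.9 and 86.3 in wt and 179.6, 200.4 and 146 in the libraries labelled S1pr2 null. All 3 labelled libraries lay above wt, and its log2 fold change was 1.03 ± 0.23 (SE, adjusted p = 0.00365 by edgeR). Bmp5, a related ligand, was counted at 45.0, 46.0 and 45.0 in wt and 65.7, 93.3 and 80.8 in the labelled libraries. It rose by 0.82 ± 0.25 (SE, adjusted p = 0.0217 by edgeR), although this call was lost without any 1 of 5 libraries of these groups (all but S1pr2 null 1), with an adjusted p of 0.0573 to 0.099. Noggin (Nog), which binds BMPs outside the cell, went from 9.0, 9.58 and 13.1 to 30.4, 26.8 and 22.7. Its log2 fold change of 1.32 ± 0.28 (SE, adjusted p = 0.00243 by edgeR) was the largest of the members, at low counts. Bmp7 (log2 fold change −0.18) and Bmp2 (−0.03) were not called, nor were the antagonists Grem1 (0.28), Chrd (0.18) and Fst (0.36).

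Of the 6 TGF-beta, activin and Gdf ligands, 3 rose and 1 fell. Gdf11, a ligand of activin type II receptors, was counted at 655, 541 and 635 in wt and 937, 879 and 828 in the labelled libraries, without overlap. It rose by 0.53 ± 0.077 (SE, adjusted p = 0.000108 by edgeR). Tgfb1 and Tgfb2 rose by 0.28 ± 0.071 with adjusted p = 0.00747 and 0.38 ± 0.10 with adjusted p = 0.0104 (edgeR), and the Tgfb2 call was lost without wt 2 or without wt 3 (0.0617 and 0.0502). Ltbp1, which holds latent TGF-beta in the matrix, was counted at 685, 364 and 500.2 in wt and 780.1, 839 and 806 in the labelled libraries. The wt libraries spread widely, and the lowest labelled library lay above the highest of them, for a rise of 0.64 ± 0.15 (SE, adjusted p = 0.00547 by edgeR). The activin B subunit Inhbb was the 1 member that fell, from 63.0, 91.0 and 65.7 to 39.3, 41.6 and 51.3. Its log2 fold change was −0.72 ± 0.20 (SE, adjusted p = 0.0147 by edgeR), and the call was lost without wt 2, S1pr2 null 1 or S1pr2 null 2 (0.0537 to 0.0966).

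Of the 9 receptors 4 rose, and of the 6 receptor-regulated or common Smads 2 rose. The other receptors (log2 fold changes from −0.03 for Acvr1 to 0.43 for Bmpr1b) and the other Smads of this class (−0.04 for Smad1 to 0.61 for Smad9) were not called. The type II receptor Acvr2b was counted at 172, 180.1 and 177 in wt and 243, 231 and 225 in the labelled libraries. These do not overlap, and the rise was 0.40 ± 0.088 (SE, adjusted p = 0.00287 by edgeR). The type I receptor Tgfbr1 rose by 0.32 ± 0.068 (SE, adjusted p = 0.00205 by edgeR). The BMP type II receptor Bmpr2 rose by 0.40 ± 0.11 with adjusted p = 0.0149 and the co-receptor Tgfbr3 (betaglycan) by 0.27 ± 0.082 with adjusted p = 0.0234 (edgeR). The Bmpr2 call was lost without wt 3 or S1pr2 null 3 (0.082 and 0.0679), and the Tgfbr3 call without wt 2, wt 3, S1pr2 null 1 or S1pr2 null 3 (0.0553 to 0.102). Smad5, a BMP-regulated Smad, was counted at 2626, 2406 and 2458 in wt and 3469.9, 3202 and 3379 in the labelled libraries, a clear separation with a rise of 0.42 ± 0.063 (SE, adjusted p = 0.000124 by edgeR). Smad2 rose by 0.17 ± 0.054 (SE, adjusted p = 0.0274 by edgeR), a call lost without any 1 of 5 libraries (all but S1pr2 null 1, 0.0509 to 0.143). The inhibitory Smad7, a feedback target of TGF-beta signalling, went from 356, 366 and 416 to 563, 523 and 535. It rose by 0.51 ± 0.068 (SE, adjusted p = 4.51e-05 by edgeR) and had the smallest adjusted p of the members. With a trend of fold change on transcript length removed, Smad2 (0.442), Tgfbr3 (0.0716) and Bmpr2 (0.0603) were no longer called. None of the 4 Id genes was called by edgeR with that trend left in. Id3 came nearest, and its log2 fold change was 0.34 ± 0.14 (SE, adjusted p = 0.0984 by edgeR) (unadjusted p = 0.0323), and it was the 1 Id gene with an unadjusted p below 0.05. With the length trend removed Id3 was called higher, at 0.41 with an edgeR adjusted p of 0.0333.

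Cell type markers moved in the same comparison. Of the markers tested, 7 of 8 epithelial, 8 of 8 endocrine and 5 of 7 acinar genes were called lower and none higher. The summed epithelial markers ranged from 2097 to 2291 CPM (counts scaled to library size) in wt and from 1551 to 1636 in the labelled libraries. Of 5 epithelial progenitor markers 0 were called, with sums of 568 to 636 CPM in wt and 608 to 656 in the labelled libraries. Mesenchymal markers had 4 of 10 called higher and 4 lower, with sums of 11100 to 11282 and 8864 to 10444. Their part in the member changes was not tested.

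The second comparison asked what blocking S1pr2 with JTE013 changed in cultured explants. Of the members, 9 rose and 9 fell, and 52.2% of all genes were called in this comparison, 25.9% higher and 26.2% lower. The share of members called, 47.4%, thus lay near that of all genes. The median log2 fold change was −0.0058 over the members and 0 over all genes, and 19 members did not overlap between the groups (56.7% of all genes). Acvr2a (higher) and Inhbb (lower) met the criterion of the study, as did 8.25% of all genes, 3.08% higher and 5.18% lower. Each of the 4 ligands called was lower, and each of the 4 receptors and of the 3 receptor-regulated or common Smads called was higher. This split by role did not extend beyond the members. Of 9 other ligands of the pathway tested, 4 were called higher and 1 lower. Of 7 other receptors and co-receptors tested, 2 were called higher and 4 lower.

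Activin subunits fell with JTE013. Inhbb was counted at 378, 308 and 486 in control explants and 171, 171 and 179.5 with JTE013. The JTE libraries lay close together and well below the lowest control, and its log2 fold change was −1.17 ± 0.15 (SE, adjusted p = 4.91e-06 by edgeR). Inhba, the activin A subunit, went from 39.3, 36.2 and 40.6 to 15.9, 9.19 and 16.7, a change of −1.46 ± 0.27 (SE, adjusted p = 0.000262 by edgeR). Follistatin (Fst), the secreted activin-binding protein, was counted at 19.1, 11.1 and 25.0 in control and 5.29, 3.06 and 6.51 in JTE explants. The groups did not overlap and Fst changed by −1.85 ± 0.43 (SE, adjusted p = 0.0017 by edgeR), at very low counts. Fst passed the filter on low counts through the control libraries alone, where it was highest, which favours a fall against control. The call was kept with no such filter. Tgfb3 was counted at 379, 369 and 349.9 in control and 206, 207 and 277 in JTE explants. JTE 3 lay highest of the treated libraries and still below every control, and the log2 fold change was −0.66 ± 0.12 (SE, adjusted p = 0.00014 by edgeR). Bmp7 changed by −0.32 ± 0.11 (SE, adjusted p = 0.0183 by edgeR), a call lost without control 1, control 2 or JTE 3 (0.0697 to 0.0917), and without JTE 3 the value was −0.18. Tgfb1 (−0.13), Tgfb2 (−0.19), Bmp4 (−0.02) and Bmp5 (0.12) were not called.

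Of the 9 receptors 4 rose with JTE013 (44.4%, against 52.2% of all genes), and Tgfbr1 (−0.06), Tgfbr2 (−0.13), Bmpr1a (0.02), Acvr1 (0.01) and Acvr2b (−0.15) were not called. The activin type II receptor Acvr2a was counted at 493, 502 and 513 in control and 799.8, 868 and 931 in JTE explants. Every treated library lay far above the narrow control range, and the rise was 0.79 ± 0.08 (SE, adjusted p = 5.05e-07 by edgeR), the smallest adjusted p of the members in this comparison. Of the exon bases of Acvr2a, 7.84% overlap Orc4 on the opposite strand, and whether counting used the strand is not stated in the sources used here. Tgfbr3 went from 507, 595 and 589 to 736, 766 and 943, without overlap, and rose by 0.53 ± 0.085 (SE, adjusted p = 6.15e-05 by edgeR). Bmpr2 went from 335, 380.0 and 342 to 431, 531 and 558 and rose by 0.52 ± 0.11 (SE, adjusted p = 0.00098 by edgeR). The BMP type I receptor Bmpr1b rose by 0.60 ± 0.21 (SE, adjusted p = 0.0242 by edgeR), which was lost without control 3, JTE 1 or JTE 2 (0.0638 to 0.13), and without control 3 the value was 0.37.

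Of the other 4 antagonists, Bambi and Grem1 were higher, and Nog (0.61) and Chrd (0.19) were not called. The pseudoreceptor Bambi, which lacks the kinase and blocks type I receptors, was counted at 562, 485 and 534 in control and 712, 687 and 847 in JTE explants. No libraries overlapped and it rose by 0.51 ± 0.096 (SE, adjusted p = 0.000291 by edgeR). The BMP antagonist Gremlin (Grem1) went from 18.05, 14.1 and 15.6 to 23.3, 29.6 and 43.7 and rose by 1.02 ± 0.31 (SE, adjusted p = 0.0109 by edgeR). Without JTE 3 its log2 fold change was 0.73 with an edgeR adjusted p of 0.0751.

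Among the Smads, Smad9 showed the largest change of all members. It was counted at 7.43, 6.03 and 14.6 in control and 30.7, 31.7 and 53.0 in JTE explants. The treated libraries all lay above control at low counts, and the log2 fold change was 2.04 ± 0.32 (SE, adjusted p = 4.89e-05 by edgeR). Smad4 and Smad2 rose by 0.26 ± 0.05 with adjusted p = 0.000352 and 0.21 ± 0.054 with adjusted p = 0.0039 (edgeR). Both inhibitory Smads were lower. Smad7 went from 484, 468 and 430.1 to 366, 390.0 and 386, without overlap, and changed by −0.28 ± 0.07 (SE, adjusted p = 0.00325 by edgeR). Smad6 changed by −0.26 ± 0.10 (SE, adjusted p = 0.0431 by edgeR), and leaving out any 1 of 7 libraries ended that call (wt 3, S1pr2 null 3, control 1, control 3 and each JTE library, 0.0508 to 0.132). Id3 and Id4 fell by the model, with log2 fold changes of −0.39 ± 0.15 with adjusted p = 0.0391 and −0.33 ± 0.12 with adjusted p = 0.0297 (edgeR). The Id3 call was lost without any 1 of 6 libraries (wt 3, control 1, control 2 and each JTE library, 0.0504 to 0.112), and the Id4 call without control 1, control 3, JTE 2 or JTE 3 (0.0537 to 0.131). Id1 (0.19) and Id2 (0.22) were not called.

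With the length trend removed, edgeR also called Smad5 (−0.22, adjusted p = 0.00342), Tgfbr2 (−0.21, 0.0264) and Tgfb2 (−0.23, 0.0405) lower and Id2 (0.23, 0.0383) higher.

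Macrophage markers were lower in the same explants, with 6 of 6 called and sums of 156 to 186 CPM in control and 70.2 to 84.5 in JTE explants. Endocrine markers (8 of 8), endothelial markers (6 of 8) and mesothelial markers (4 of 5) were called lower and none of them higher. The mesothelial list includes Krt19, whose protein (CK19) the study uses as a duct marker. The part of these markers in the changes of ligands and antagonists was not tested.

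**Figure D3:**
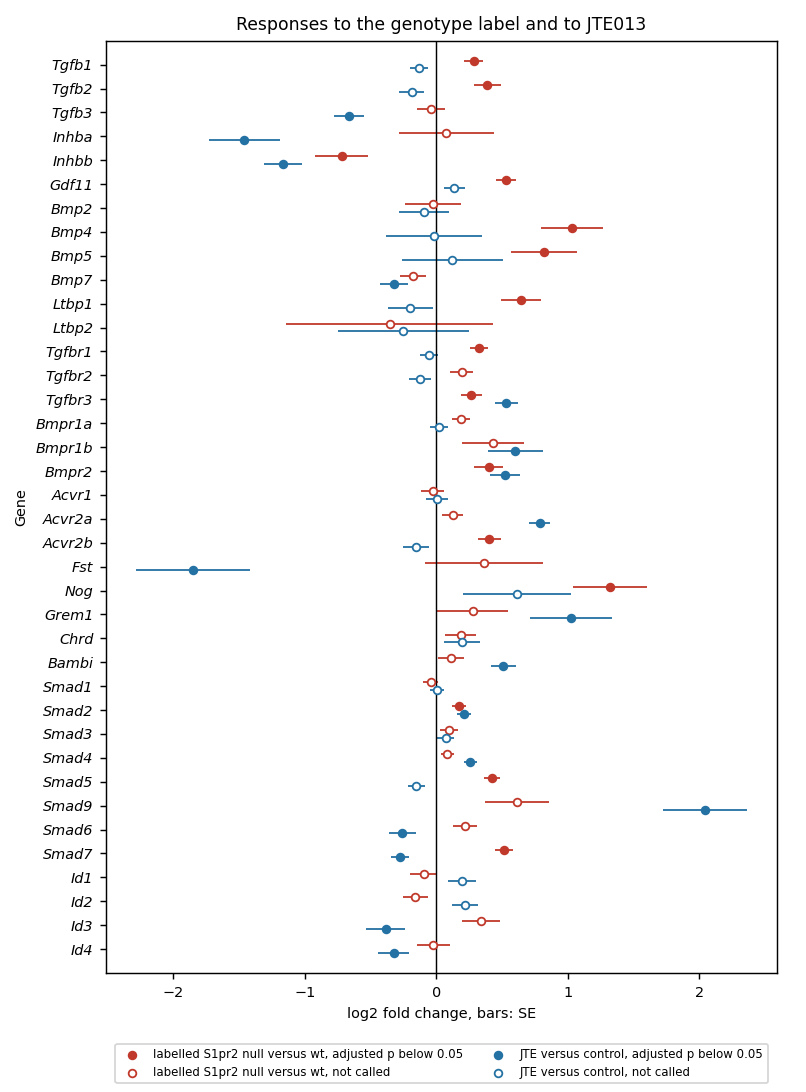
Log2 fold changes of the 38 members with their SE, for the libraries labelled S1pr2 null versus wt (red) and for JTE versus control (blue); filled points have an edgeR adjusted p below 0.05. Bmp4, Nog and Smad7 lie right of 0 for the genotype label, whereas Inhba, Inhbb and Fst lie far left and Smad9 far right for JTE013.

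The labelled genotype and the antagonist are both meant to remove S1pr2 signalling, so the difference between the 2 responses was tested directly by an interaction contrast, JTE response minus genotype response. It was called for 18 members, 4 higher and 14 lower, against 42.9% of all genes, 21.5% in each direction. The median of the contrast was −0.23 over the members and 0.0043 over all genes. Without control 2, 2 members were higher. Smad7 and Smad5 had the smallest adjusted p. Smad7 rose with the genotype label and fell with JTE013, and the responses differed by −0.79 ± 0.098 (SE, adjusted p = 8.37e-06 by edgeR). For Smad5, which rose with the label and was not called with JTE013 (−0.15), the difference was −0.58 ± 0.09 (SE, adjusted p = 7.61e-05 by edgeR). The ligands Tgfb1, Tgfb2, Gdf11, Tgfb3 and Inhba all responded lower to JTE013 than to the label, by log2 differences between −0.39 and −1.54. Acvr2a went the other way, with a difference of 0.66 ± 0.11 (SE, adjusted p = 0.000176 by edgeR). Bmp4 rose with the label alone, yet the difference between its responses, −1.05 ± 0.44 (SE, adjusted p = 0.0611 by edgeR), was not called. Stage, culture and the part of the organ dissected also differ between these pairs of groups and cannot be told apart from the kind of S1pr2 block.

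The third comparison asked what CTGF protein changed in explants that received JTE013. It called 1 member higher and 6 lower, while 30.4% of all genes were called, 13.6% higher and 16.8% lower. The share of members called was 18.4%. The median log2 fold change was −0.12 over the members and −0.0022 over all genes, and 9 members did not overlap between the groups (40.2% of all genes). The number called was 4 without JTE 2. The number called higher was 3 without JTE 3 and 0 without JTE 1, JTE 2 or JTE+CTGF 3. The JTE libraries serve both this comparison and the previous one, so a member that lies high in them tends to be higher there and lower here.

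Under the criterion of the study 0 members rose and 2 fell, both type II receptors, while 1.74% of all genes met it, 0.443% higher and 1.3% lower. Bmpr2 was counted at 431, 531 and 558 with JTE013 alone and at 201, 202 and 141 with CTGF. The highest library with CTGF held less than the lowest without it, and Bmpr2 changed by −1.48 ± 0.13 (SE, adjusted p = 5.22e-07 by edgeR). Acvr2b went from 125, 113 and 107 to 70.9, 60.7 and 68.7, again without overlap, and changed by −0.78 ± 0.11 (SE, adjusted p = 5.2e-05 by edgeR). Tgfbr3 went from 736, 766 and 943 to 653, 631 and 679.9, and its log2 fold change was −0.32 ± 0.085 (SE, adjusted p = 0.00924 by edgeR). That call rested on JTE 3, the highest of the 6, without which the value was −0.16 with an edgeR adjusted p of 0.109.

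The ligands Bmp7 and Gdf11 were lower and Bambi higher. Bmp7 was counted at 923, 891 and 650.1 with JTE013 and 631, 583 and 643 with CTGF added. The groups did not overlap, although JTE 3 lay close to the CTGF libraries, and Bmp7 changed by −0.41 ± 0.11 (SE, adjusted p = 0.0116 by edgeR). This call was lost without JTE 1 or JTE 2 (0.0626 and 0.0527). Gdf11 went from 700.4, 794 and 731 to 561, 636 and 565, without overlap, and changed by −0.34 ± 0.08 (SE, adjusted p = 0.00412 by edgeR). Bambi went from 712, 687 and 847 to 796, 924 and 1068, with overlap between the groups, and rose by 0.31 ± 0.093 (SE, adjusted p = 0.0185 by edgeR). It was not called without JTE 1, JTE 2 or JTE+CTGF 3 (0.0688 to 0.138), and without JTE+CTGF 3 the value was 0.20. Inhbb (0.19), Inhba (−0.53), Fst (0.00), Tgfb3 (−0.18) and Smad9 (−0.65), which include members that changed with JTE013, were not called. In JTE+CTGF 1, Id3 was counted at 379.6, below 783 and 668 in the other libraries of its group.

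Long transcripts were lower with CTGF across the whole table. Among genes whose longest annotated transcript is over 8 kb, the median log2 fold change was −0.461 and 69.3% were called lower, against 0.157 and 4.92% among genes of up to 2 kb. The longest transcript of Bmpr2 has 12899 bases, and its log2 fold change lay below the 10th percentile of genes over 8 kb (−0.931). With the length trend removed, Bmpr2 stood at −0.90 (edgeR adjusted p = 8.71e-06). Acvr2b, whose longest transcript has 3175 bases, stood at −0.82 (edgeR adjusted p = 7.24e-05). Bmp7 (−0.40, 0.0225), Gdf11 (−0.30, 0.0155) and Bambi (0.44, 0.00549) also kept an edgeR adjusted p below the threshold. Tgfbr2, not called before, was higher (0.32, 0.00667). Tgfbr3 no longer passed (−0.094, 0.464). Smad2, called lower before (−0.16 ± 0.055 with adjusted p = 0.0391), turned to 0.21 with an edgeR adjusted p of 0.00483, and its call was also lost without any 1 of 6 libraries (0.0509 to 0.209). Counted exons spanned 3555 bases of Bmpr2 and 1753 of Acvr2b, fewer than their longest transcripts hold, and the trend was fitted on the longest transcripts. What lies behind the length trend was not tested, nor was whether the uncounted bases bear on the values of Bmpr2 and Acvr2b.

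**Figure D4:**
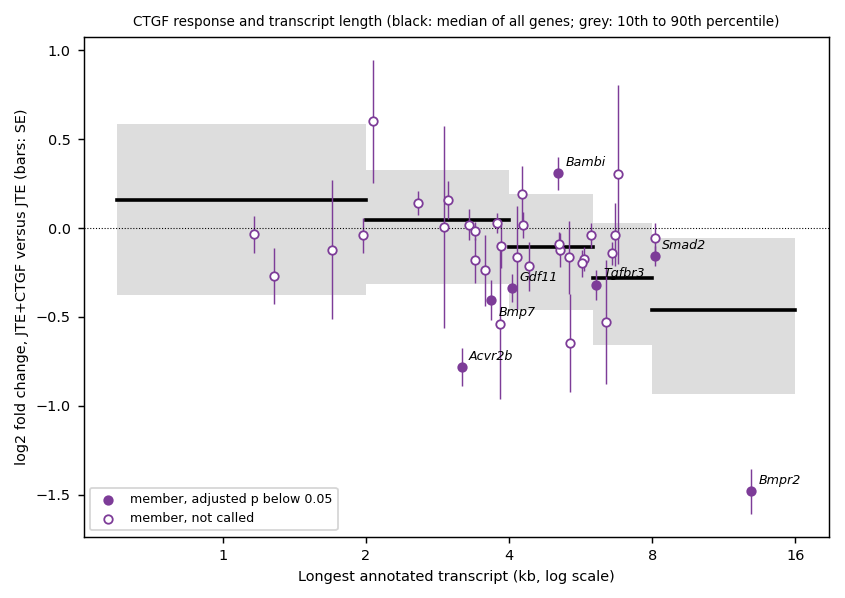
Log2 fold change with SE of each member for JTE+CTGF versus JTE, against the length of its longest annotated transcript in kb (log scale); black bars are medians of all genes in 5 length classes and grey areas span the 10th to 90th percentile, with the open first and last classes drawn to a fixed length. Medians fall from 0.157 to −0.461 with length, and Bmpr2 and Acvr2b lie below the grey areas of their classes. So do Bmp7 and, among the members not called, Bmp5 and Smad9.

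Red blood cell markers were higher with CTGF, with 5 of 8 called and sums of 18.1 to 48.9 CPM with JTE013 and 106 to 180 with CTGF. Epithelial progenitor markers were called lower (3 of 5) and none higher. Endothelial markers had 3 of 8 called higher and 1 lower, epithelial markers 2 of 8 higher and 1 lower, and endocrine markers 1 of 8 higher and 2 lower. The part of these markers in the member changes was not tested.

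Set against untreated explants, the group with both agents had 6 members called higher and 14 lower, while 61.1% of all genes were called, 28.1% higher and 33% lower. The median was −0.063 over the members and −0.032 over all genes, and 20 members did not overlap (64.8% of all genes). The criterion of the study was met by 1 member higher (Bambi) and 4 lower (Inhbb, Bmpr2, Acvr2b and Tgfb3), and by 11.8% of all genes, 4.39% higher and 7.39% lower. The control libraries are shared with the JTE comparison, so the values are given side by side and not as separate support. Inhbb was lower by −0.98 ± 0.15 (SE, adjusted p = 2.17e-05 by edgeR), at 210.4, 202 and 184 reads against 378, 308 and 486. Its level lay between those of JTE and control without overlap. The difference from JTE alone was not called (0.19, edgeR adjusted p = 0.385). Acvr2b changed by −0.94 ± 0.11 (SE, adjusted p = 1.25e-06 by edgeR), from 133, 127 and 124 to 70.9, 60.7 and 68.7. Bmpr2 was higher than control with JTE013 alone and lower than control with both agents, by −0.96 ± 0.13 (SE, adjusted p = 7.18e-06 by edgeR). With the length trend removed, the change of Bmpr2 with both agents was smaller, at −0.48 (edgeR adjusted p = 0.000439).

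Tgfb3 was counted at 199, 231 and 180.0 with both agents, all below control, and changed by −0.85 ± 0.12 (SE, adjusted p = 1.16e-05 by edgeR). Bmp7, at 631, 583 and 643 against 1095, 1128 and 855 in control, changed by −0.73 ± 0.11 (SE, adjusted p = 2.58e-05 by edgeR). Bambi was counted at 796, 924 and 1068 against 562, 485 and 534 in control, without overlap, and rose by 0.82 ± 0.096 (SE, adjusted p = 1.46e-06 by edgeR). At lower counts, Inhba and Fst changed by −1.99 ± 0.30 with adjusted p = 2.29e-05 and −1.85 ± 0.45 with adjusted p = 0.00183, and Smad9 and Grem1 by 1.39 ± 0.35 with adjusted p = 0.00237 and 0.86 ± 0.32 with adjusted p = 0.0297 (edgeR). Here too, Fst was tested only because the control libraries passed the filter. Acvr2a (0.59 ± 0.082 with adjusted p = 9.34e-06) and Smad4 (0.24 ± 0.05 with adjusted p = 0.000535) were also higher by edgeR, as was Tgfbr3 (0.21 ± 0.088 with adjusted p = 0.0436). The remaining members called lower by edgeR were Id3 (−0.66 ± 0.15 with adjusted p = 0.00143), Id4 (−0.43 ± 0.12 with adjusted p = 0.00596), Tgfb2 (−0.31 ± 0.094 with adjusted p = 0.00842), Smad5 (−0.30 ± 0.065 with adjusted p = 0.000815), Smad7 (−0.26 ± 0.071 with adjusted p = 0.00458), Tgfbr1 (−0.23 ± 0.069 with adjusted p = 0.00821) and Gdf11 (−0.20 ± 0.08 with adjusted p = 0.04). Without JTE+CTGF 1, the library with the lowest Id3 count, Id3 stood at −0.40 and was still called. The calls of Tgfbr3 (0.0505 to 0.194), Gdf11 (0.0503 to 0.128) and Grem1 (0.065 to 0.171) were lost without single libraries. With the length trend removed, Tgfbr1 (0.179), Smad5 (0.155) and Gdf11 (0.0601) were no longer called, and Smad2 (0.34, 1.28e-05) and Bmpr1b (0.54, 0.0424) were called higher by edgeR. For Tgfbr3 the libraries were wt 2, S1pr2 null 1, S1pr2 null 2, control 1, JTE+CTGF 1 and JTE+CTGF 3. For Gdf11 they were S1pr2 null 2, control 1, control 3, JTE 3, JTE+CTGF 1 and JTE+CTGF 3, and for Grem1 control 2, control 3, JTE+CTGF 1 and JTE+CTGF 3.

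Cell type markers also differed between these groups. Macrophage (6 of 6), endocrine (8 of 8), endothelial (6 of 8, with 2 higher), mesothelial (4 of 5, Krt19 being in the list) and epithelial progenitor markers (4 of 5) were called lower with both agents. Red blood cell markers were called higher (6 of 8), with sums of 13.8 to 35.6 CPM in control and 106 to 180 with both agents. Macrophage sums were 156 to 186 and 61.4 to 85.2 CPM. Their part in the member changes was not tested.

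The last comparison set control explants against wt pancreata taken directly, which joins 2 days of time, culture itself and the dissection of the dorsal bud. It called the most members, 13 higher and 12 lower, and 57.8% of all genes, 28.5% higher and 29.3% lower. The median was −0.030 over the members and −0.023 over all genes, and 26 members did not overlap (63.8% of all genes). The criterion of the study was met by 5 members higher (Inhbb, Tgfb2, Tgfb1, Tgfbr2 and Id4) and 2 lower (Chrd and Bmp7), and by 12.1% of all genes, 7.99% higher and 4.14% lower. When libraries were scaled by their totals alone, the median of all genes shifted to −0.167. No called member changed direction under that scaling, and Smad7 was no longer called (0.0959).

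Of the 6 TGF-beta, activin and Gdf ligands, 4 were higher in explants, and Tgfb3 (−0.09) and Gdf11 (0.14) were not called. Of the 4 BMP ligands, 3 were lower and 1 higher. Inhbb was counted at 63.0, 91.0 and 65.7 in wt and 378, 308 and 486 in control explants. The explants held several times more in every library, a rise of 2.42 ± 0.16 (SE, adjusted p = 1.93e-09 by edgeR). Inhba went from 11.7, 6.70 and 7.51 to 39.3, 36.2 and 40.6 and rose by 2.14 ± 0.29 (SE, adjusted p = 8.46e-06 by edgeR). Tgfb2 was counted at 231, 179 and 188 in wt and 445, 479.6 and 462 in explants, and rose by 1.21 ± 0.098 (SE, adjusted p = 2.05e-08 by edgeR). Tgfb1 went from 285, 289 and 279 to 515, 553 and 579, again without overlap, and rose by 0.95 ± 0.069 (SE, adjusted p = 5.78e-09 by edgeR). Bmp7, the most abundant ligand, went from 1955, 1949 and 1900.3 to 1095, 1128 and 855 and changed by −0.92 ± 0.10 (SE, adjusted p = 1.08e-06 by edgeR). Bmp4 and Bmp5 changed by −1.84 ± 0.30 with adjusted p = 5.72e-05 and −1.74 ± 0.32 with adjusted p = 0.000183 (edgeR), from counts already below 100 in wt. Bmp2 was the BMP ligand that rose, by 0.74 ± 0.20 (SE, adjusted p = 0.00458 by edgeR).

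Among the members, the BMP antagonists Chrd, Nog and Grem1 were lower in explants and follistatin was higher. Outside the members, the BMP antagonist Sostdc1 rose in this comparison, as given below. Chordin (Chrd), a secreted BMP antagonist, was counted at 131, 132 and 122 in wt and 70.1, 59.3 and 70.8 in explants. The wt libraries all lay far above, and the change was −0.95 ± 0.13 (SE, adjusted p = 8.18e-06 by edgeR). Nog and Grem1 changed by −1.01 ± 0.39 with adjusted p = 0.0331 and −0.94 ± 0.31 with adjusted p = 0.0157 (edgeR). The Nog call was lost without wt 3, control 1 or control 2 (0.104 to 0.137) and the Grem1 call without wt 1, wt 3 or control 2 (0.0508 to 0.0561). Fst rose by 1.41 ± 0.40 (SE, adjusted p = 0.00608 by edgeR), at low counts. Only the control explants brought Fst past the filter on low counts, which favours a rise.

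The type II receptor Tgfbr2 was counted at 1255, 1053 and 1080.1 in wt and 1969, 1987 and 2128 in explants, without overlap. It rose by 0.84 ± 0.087 (SE, adjusted p = 3.31e-07 by edgeR). Bmpr1b rose by 0.69 ± 0.23 (SE, adjusted p = 0.0183 by edgeR), which was lost without control 1 or control 2 (0.0919 and 0.0766). Acvr2b, Tgfbr3 and Acvr2a were lower, with log2 fold changes of −0.47 ± 0.094 with adjusted p = 0.000414, −0.46 ± 0.085 with adjusted p = 0.000188 and −0.28 ± 0.081 with adjusted p = 0.0078 (edgeR). Smad1 and Smad3 rose by 0.48 ± 0.055 with adjusted p = 1.34e-06 and 0.47 ± 0.066 with adjusted p = 1.07e-05, and Smad7 by 0.28 ± 0.07 with adjusted p = 0.00222 (edgeR). Smad9 (−1.82 ± 0.32 with adjusted p = 0.000133), Smad6 (−0.53 ± 0.097 with adjusted p = 0.000173) and Smad5 (−0.33 ± 0.064 with adjusted p = 0.000254) were lower by edgeR. Id4 rose by 0.74 ± 0.12 (SE, adjusted p = 6.28e-05 by edgeR), and Ltbp2 by 2.27 ± 0.60 (SE, adjusted p = 0.00392 by edgeR) from very low counts. Of the exon bases of Ltbp2, 9.34% overlap a gene on the opposite strand. Red blood cell markers were called lower (8 of 8) and macrophage markers higher (5 of 6) in the explants. Acinar markers were called higher (6 of 7), with sums of 3662 to 5186 CPM in wt and 11782 to 16122 in explants, as were 5 of 8 epithelial and 4 of 8 endocrine markers with none of these 3 lists lower. Their part in these changes was not tested.

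**Figure D5:**
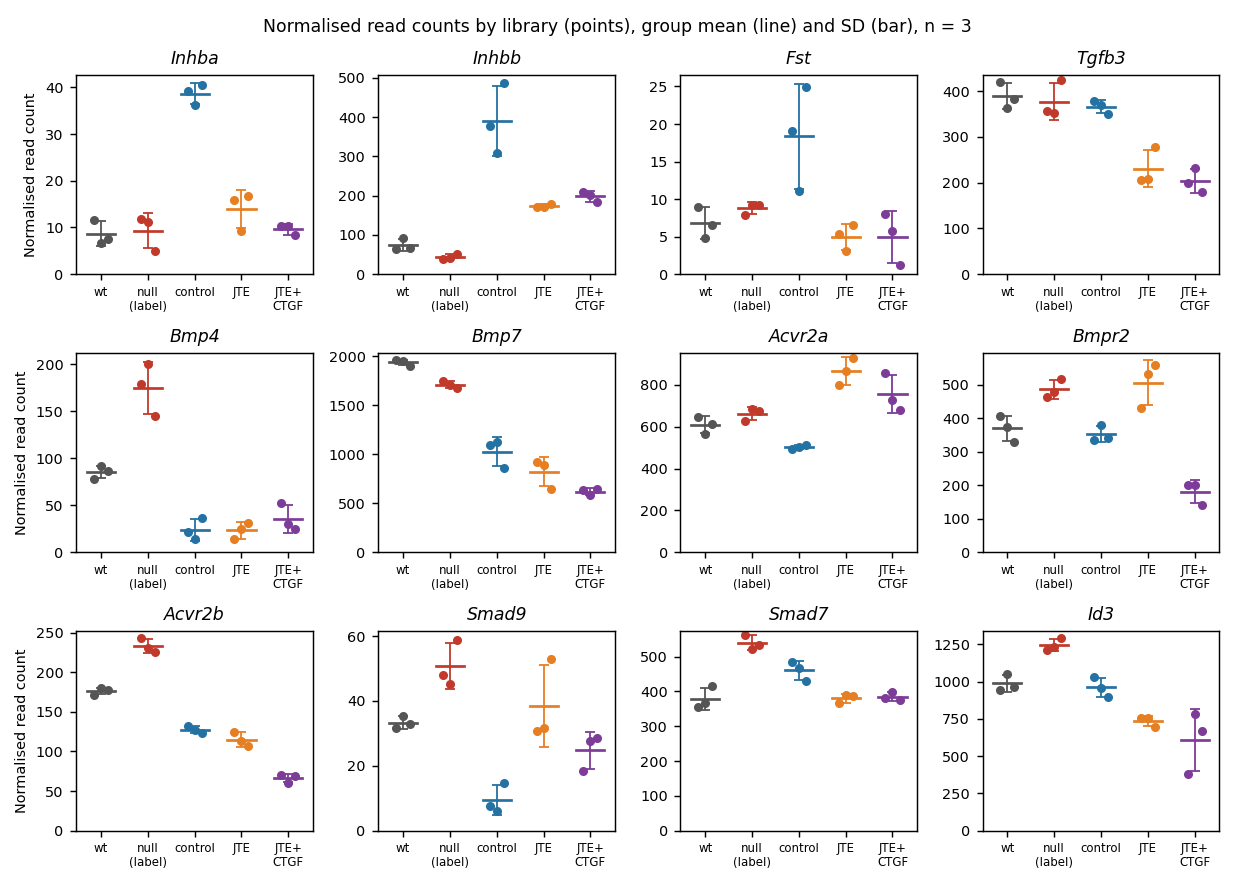
Normalised read counts of 12 members in each library (points), with the group mean (line) and SD (bar, n = 3) on axes that start at 0. Inhba and Inhbb peak in control explants, Bmp4 in the libraries labelled S1pr2 null, and Bmpr2 and Acvr2b are lowest with CTGF.

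Of 66 further genes of the pathway, 58 could be tested. In the libraries labelled S1pr2 null, 15 rose and 8 fell (39.7% called, against 25.8% of all genes). Of those with over 100 normalised reads, the ligand Gdf6 (1.28 ± 0.18 with adjusted p = 9.41e-05) and the TGF-beta-induced matrix protein Tgfbi (1.19 ± 0.11 with adjusted p = 1.13e-06) rose most and the TGF-beta-binding proteoglycan Dcn fell most (−0.69 ± 0.091 with adjusted p = 4e-05, edgeR). Of the 11 intracellular regulators tested, 7 rose and none fell there (63.6%). With JTE013, 15 rose and 24 fell (67.2%, against 52.2%). Among those that fell were Ccn2, the gene of CTGF itself (−1.88 ± 0.22 with adjusted p = 2.08e-06), the smooth muscle gene Tagln (−1.80 ± 0.13 with adjusted p = 6.55e-09) and the BMP antagonist Sostdc1 (−2.02 ± 0.40 with adjusted p = 0.000392, edgeR), and the stress-responsive ligand Gdf15 rose (2.25 ± 0.15 with adjusted p = 2.92e-09). Of 13 further targets, 1 rose and 6 fell with JTE013 (53.8%), a share close to the 52.2% of all genes.

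With CTGF added to JTE013, 7 of the 58 rose and 9 fell (27.6%, against 30.4% of all genes). The matrix genes Fn1 (−0.64 ± 0.13 with adjusted p = 0.0014) and Fbn1 (−0.61 ± 0.096 with adjusted p = 0.000155), whose transcripts are long, fell. The proteoglycan Bgn (0.45 ± 0.063 with adjusted p = 5.28e-05) and Pmepa1, a TGF-beta target that dampens Smad signalling (0.44 ± 0.065 with adjusted p = 8.78e-05, edgeR), rose. Against control, both agents together gave 9 higher and 22 lower (53.4%, below the 61.1% of all genes), and culture gave 25 higher and 14 lower (67.2%, against 57.8%). In culture Gdf15 (3.64 ± 0.27 with adjusted p = 5.51e-09) and Sostdc1 (2.84 ± 0.42 with adjusted p = 2.25e-05) rose most among those with over 100 normalised reads, and the ligand Bmp6 (−1.55 ± 0.22 with adjusted p = 1.57e-05, edgeR) fell most. The interaction contrast called 31 of the 58, 10 higher and 21 lower (53.4%, against 42.9% of all genes).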

How the data were processed

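Poly(A) RNA of 15 strand-specific libraries was sequenced. The authors aligned reads to mm10 with GSNAP and deposited raw read counts per Ensembl gene (featureCounts 1.4.6), neither normalised nor pooled. Whether counting used the strand is not stated in the sources used here. Symbols were found for 24750 of 25292 genes (97.9%). The members and the gene lists were chosen with earlier results of these data known.

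The main test was edgeR's quasi-likelihood one (edgeR 4.0.16, R 4.3.3, limma 3.58.1), after TMM scaling and filterByExpr. One model without covariates held all 15 libraries, and p-values were adjusted over 16245 genes by the Benjamini-Hochberg method. A gene was called at an adjusted p below 0.05. Called members are given with log2 fold change, SE and adjusted p, and the 6 of largest change per comparison, among those averaging over 100 normalised reads in a group, also by library. Further pathway genes named were the largest called changes of genes above that count. For normalised counts, each library was scaled by its TMM-adjusted total over the mean of these totals, and RPKM values use the exon lengths of the count table. The biological coefficient of variation was 7.3%, so below about 100 reads counting error adds to the spread. Alternatives were other scalings, DESeq2 1.42.0, no filter, a replicate block, only the libraries compared, each library left out, the criterion of the study, and a fit with a smooth transcript length trend removed (GENCODE M21 lengths for 99% of genes), which was chosen after seeing the data. The fit was tested on simulated counts. Promoters came from RefSeq (27 of 38 members had one). Python 3.11.15, pandas 2.3.3 and matplotlib 3.10.9 served for tables and plots.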

Additional observations from a re-analysis of the deposited data

Results flagged for a closer look

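The responses to JTE013 and to the S1pr2 null label differed for 18 members by the interaction contrast (JTE versus control minus labelled S1pr2 null versus wt), tested with edgeR over all genes. That is 47.4% of the members, near the 42.9% of all genes called. The response to JTE013 was lower for Fst (−2.21), Inhba (−1.54), Ltbp1 (−0.84), Smad7 (−0.79), Id3 (−0.72), Tgfb3 (−0.62), Smad5 (−0.58), Tgfb2 (−0.57), Acvr2b (−0.55), Smad6 (−0.48), Tgfb1 (−0.42), Gdf11 (−0.39), Tgfbr1 (−0.38) and Tgfbr2 (−0.32), as log2 differences. It was higher for Smad9 (1.43), Acvr2a (0.66), Bambi (0.40) and Id2 (0.38). Fst passed the filter on low counts through the control libraries alone. The edgeR adjusted p ran from 8.37e-06 for Smad7 to 0.0438 for Tgfbr2. The Tgfbr2 call was lost without any 1 of 12 libraries (all but wt 1, control 1 and JTE 3, 0.0501 to 0.119). The Id2 call was lost without any 1 of 8 (wt 2, wt 3, S1pr2 null 1, S1pr2 null 3, control 2, control 3, JTE 1 and JTE 2, 0.057 to 0.089), and the Bambi call without wt 1, S1pr2 null 2, control 2 or JTE 3 (0.0527 to 0.0695). The 2 responses come from different stages and preparations of the organ, which cannot be told apart from genotype and antagonist.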

How the results depend on the processing

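Of the member calls, 9 of 15 (labelled S1pr2 null versus wt), 12 of 18 (JTE versus control), 3 of 7 (JTE+CTGF versus JTE), 15 of 20 (JTE+CTGF versus control), 21 of 25 (control versus wt) and 15 of 18 (interaction) were kept under every alternative run for single members; over all calls and alternatives, 2226 values kept direction and call, 141 lost the call and 1 reversed. The reversal was Smad2 in JTE+CTGF versus JTE, at 0.21 with the length trend removed, an alternative chosen after seeing the data. That fit gave 3 members higher and a median of −0.025 in this comparison, and a median of −0.018 in JTE+CTGF versus control. Under the criterion of the study, 1 member was called for the S1pr2 null label (1 higher, 0 lower: Bmp4), 2 for JTE013 (1 higher, 1 lower), 2 for CTGF added to JTE013 (0 higher, 2 lower), 5 for both agents versus control (1 higher, 4 lower) and 7 for culture (5 higher, 2 lower). With only the libraries compared, 3 members were lower for the label and 0 higher for CTGF added to JTE013. With library totals, the member median was −0.107 in JTE+CTGF versus control and −0.17 in control versus wt, where that of all genes was −0.167. Leaving out each library gave 9 to 17 members higher, 0 to 2 lower and medians of 0.16 to 0.28 for the label, and medians of −0.077 to 0.060 for JTE013. It gave 4 to 9 members called and 0 to 3 higher for CTGF added to JTE013, medians of −0.17 to −0.027 in JTE+CTGF versus control and −0.054 to 0.018 in control versus wt, and 2 to 6 higher with medians of −0.33 to −0.18 in the interaction. The cause of these shifts was not tested.

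Equal replicate numbers did not pair the libraries: deviations of same-numbered libraries correlated at −0.097 to 0.248, and no comparison had every pair above 0.1. With a replicate block, 16, 18, 7, 19, 26 and 18 members were called in the 6 comparisons in the order above, and among the calls made without it Smad6 (JTE013, adjusted p = 0.0574) and Gdf11 (JTE+CTGF versus control, 0.0521) were lost. Depth limits Inhba, Fst, Nog, Bmp5, Smad9 and Grem1 most, since they carry few reads per library.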

Other observations

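The type I receptors Acvr1 and Bmpr1a and the BMP target Id1 were not called in any of the 6 comparisons by edgeR. Log2 fold changes of Acvr1 ran from −0.030 to 0.18, with a smallest adjusted p of 0.0856 in control versus wt. Bmpr1a ran from −0.16 to 0.18, with 0.056 for the S1pr2 null label, and Id1 from −0.098 to 0.29, with 0.125 in the interaction. These p-values do not show that the levels were the same. Ltbp2, which encodes a matrix protein related to the latent TGF-beta binding proteins, varied most within a group, at 31.7, 22.5 and 147 normalised reads in the JTE libraries.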
